A study of Mus musculus with 6 samples.

Results

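Chromosome 1 carried more background reads per window than any other autosome in both libraries of a chromatin immunoprecipitation sequencing (ChIP-seq) study of Cbp in BM-HPC cells, and its depth is described here along its length. The members were fixed 500 kb windows of genome build mm9 from position 4000000 on, with 250 or more read midpoints over both libraries after reads inside the deposited peak rows were left out. Of 386 full windows on chromosome 1, 383 were kept, out of 5038 kept of 5109 windows on chromosomes 1 to 19 and X. The depth of both libraries was used to choose the chromosome and to keep its windows, so the depth values are a description and carry no test.

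BM-HPC is a hematopoietic progenitor and stem cell line from mouse bone marrow, labelled with the strain C57BL/6-cast. The medium held stem cell factor at 100 ng/ml and IL-6 at 10 ng/ml, and the untreated cells were crosslinked in 1% formaldehyde. The groups are 1 library made with a rabbit polyclonal Cbp antibody and 1 made with rabbit IgG, the non-specific control. Cbp is a transcriptional co-activator with acetyltransferase activity that transcription factors bring to DNA. Both libraries come from 1 cell line with no replicate, so every interval below is an exact 95% interval that covers counting error only, and every test compares the 2 libraries and not the antibodies behind them. The other 4 samples of the series, flow-sorted marrow cells with or without Cbp, list no file and were not analysed here.

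An immunoprecipitation enriches only a small part of the genome, and most reads of such a library are background drawn from all chromatin. In an IgG library nearly all reads are of this kind. The number of background reads in a window is known to follow the amount of that DNA in the cells, how open its chromatin is, its base composition and how uniquely its sequence can be mapped. Cultured cell lines often carry extra or missing copies of chromosomes, and window counts of this type are the usual way to look for them. Base composition and mappability of mm9 and an independent measure of DNA copies were not used here, so the part of each in the values below was not tested.

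The Cbp library held 9770169 deposited intervals and the IgG library 8068592, of which 3.88% and 14.6% repeated another interval exactly and were counted once. The median kept window of chromosomes 2 to 19 held 1789 Cbp and 1299 IgG midpoints, and relative depth is a window's count divided by these medians. The last 195 kb of chromosome 1, from 197000001 to 197195476, do not fill a window and held 642 Cbp and 443 IgG midpoints. They were left out of all values.

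The whole distribution of windows lay higher on chromosome 1, by a similar factor at low, middle and high depth. In the Cbp library the 383 windows ranged from 0.235 to 2.05 with a median of 1.32, and in the IgG library from 0.252 to 2.26 with a median of 1.32. The medians of the 18 other autosomes lay between 0.923, on chromosome 12, and 1.13, on chromosome 11, in the Cbp library. In the IgG library the same 2 chromosomes bounded them at 0.921 and 1.15. Chromosome 1 thus stood above all 18 in each library, with no overlap between its median and theirs. At the 5th percentile its windows stood at 0.974 in the Cbp library against 0.698 for chromosomes 2 to 19 pooled, a quotient of 1.40. At the 25th percentile the quotient was 1.36, at the 75th 1.32 and at the 95th 1.31. The IgG library gave 1.40, 1.33, 1.31 and 1.29 at the same percentiles. In the lowest 1% of windows the quotient was 2.38 for Cbp and 2.45 for IgG, where chromosomes 2 to 19 held more thinly covered windows. Of their windows, 9.18% had a midpoint in under 90% of the 1 kb bins, against 3.66% (14 windows) on chromosome 1. Without such windows the median relative depth of chromosome 1 was 1.29 in both libraries. Covered bins are counted from the same midpoints as depth, so this filter takes out shallow windows and is no separate check.

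**Figure D1:**
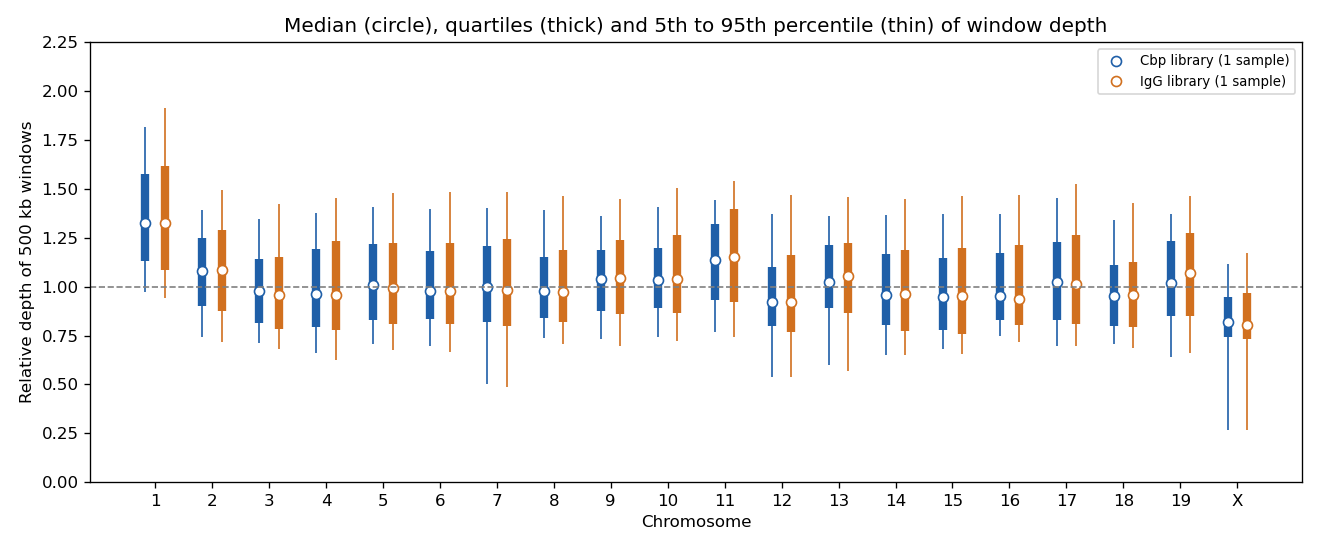
Relative depth of kept 500 kb windows (vertical axis, 1 is the median window of chromosomes 2 to 19) on each chromosome, for 1 Cbp and 1 IgG library. Circles are medians, thick bars quartiles and thin lines the 5th to 95th percentile of windows, not errors over samples. Both circles of chromosome 1 lie at 1.32, above those of the other chromosomes.

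Counted by window, 358 of the 383 (93.5%) lay above 1 in the Cbp library, where 51.3% of all windows did. In the IgG library it was 333 (86.9%), against 51.0% of all windows. Both libraries placed 332 windows above 1 and 24 below it. Above 1.5 lay 120 windows of chromosome 1 in Cbp, against 2.9% of all windows, and 135 in IgG, against 6.01% of all windows. All 120 windows of the Cbp library were among the 135 of the IgG library. On chromosomes 2 to 19 only 26 of 4345 windows passed 1.5 in Cbp and 168 in IgG. Since chromosome 1 was picked for its depth, these shares only restate that choice.

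The median was above 1 in every 20 Mb stretch of chromosome 1, and it was highest toward the distal end. Single shorter segments, given below, lay at or under 1. In consecutive stretches of 20 Mb, the Cbp median was 1.17 from 4000001 to 24000000, 1.22 in the next stretch and 1.30 in the stretch after it. It was 1.34 from 64000001 to 84000000 and 1.27 from 84000001 to 104000000. The lowest stretch, from 104000001 to 124000000, stood at 1.12 in Cbp and 1.07 in IgG. The 4 stretches beyond it, the last of which is 13 Mb long, stood at 1.47, 1.45, 1.47 and 1.47 in Cbp and at 1.49, 1.47, 1.53 and 1.43 in IgG. All of these distal values were above every more proximal one, in each library. Among 100 equal stretches on chromosomes 2 to 19 the Cbp median ran from 0.670 to 1.26, and 6 of the 9 full stretches of chromosome 1 were above all 100. In the IgG library the range was 0.705 to 1.30, and 5 of 9 were above all 100. The lowest stretch of chromosome 1 was exceeded by 13 of the 100 in Cbp and by 30 in IgG. The quartiles of neighbouring stretches overlapped, though only between 1.19 and 1.28 in Cbp at the step from the lowest stretch to the one beyond it.

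**Figure D2:**
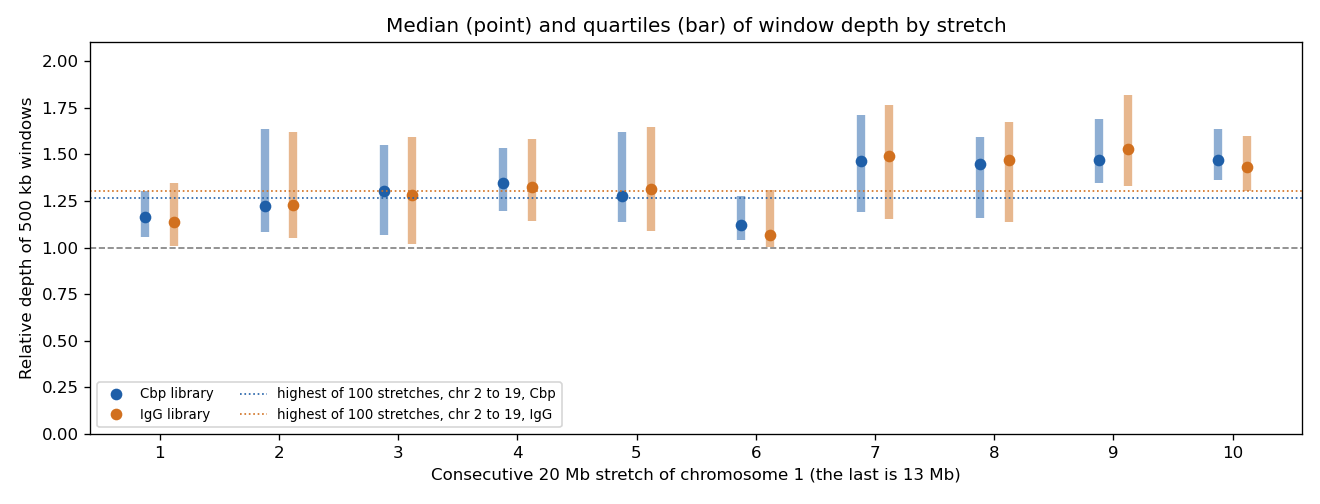
Relative depth (vertical axis) in the 10 consecutive stretches of chromosome 1 (horizontal axis) in the Cbp and IgG library, with the median of windows as a point and the quartiles as a bar. Dotted lines mark the highest of 100 equal stretches on chromosomes 2 to 19, at 1.26 in Cbp and 1.30 in IgG, and the points of stretches 7 to 10 all lie above them.

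A least-squares partition of the mean log2 depth of both libraries divided chromosome 1 into 13 segments of 2.5 to 45.5 Mb. Levels are geometric means of relative depth. The first segment, from 4000001 to 33500000, had a level of 1.15 in Cbp and 1.12 in IgG, with windows between 0.892 and 1.72 in Cbp. The segment from 33500001 to 44500000 stood at 1.54 and 1.56. The next one, up to 51000000, returned to 1.01 in Cbp and 0.980 in IgG, the level of the other autosomes. A long segment of 65 windows followed, from 51000001 to 83500000, at 1.39 in both libraries. It was the second longest, after the last one.

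The lowest and the highest segment lay side by side. From 83500001 to 87500000 the level was 0.770 in Cbp and 0.787 in IgG, and from 87500001 to 95500000 it was 1.66 and 1.69. This was the largest change of level, 2.15-fold, but the lower segment rests on only 5 kept windows around a gap of 3 windows without any midpoint. Its median window stood at 1.14 in Cbp and 1.09 in IgG, so its low level comes from the windows at the edges of the gap. The largest changes beside it were the drop into it, to 0.559 of the level before, and the drop at 44500001, to 0.642 of the level before.

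The remaining segments went between levels from 1.00 to 1.15 and levels near or above 1.5, apart from 1 of intermediate level. From 95500001 to 107000000 the level was 1.15 in Cbp and 1.13 in IgG. A short segment of 5 windows up to 109500000 stood at 1.499 and 1.56. From 109500001 to 120000000 the values were 1.05 and 1.00, with a standard deviation (SD) over windows of 0.106 in Cbp, which was lower only in the segment at 44500001. The intermediate segment, from 120000001 to 129000000, had a level of 1.31 in Cbp and 1.29 in IgG. It was 1.59 and 1.65 from 129000001 to 141500000. From 141500001 to 151500000 it was 1.12 and 1.09. The last segment, from 151500001 to 197000000, was the longest, with 91 windows at 1.49 in Cbp and 1.51 in IgG.

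Of the 13 segments, 11 had a mean level over both libraries above 1, and 5, with 159 windows, were above 1.5. The 230 segments found the same way on chromosomes 2 to 19 reached at most 1.43, and 105 of them were above 1. When each library was partitioned by itself, it gave 12 boundaries on chromosome 1, and all 12 of each library lay within 1 window of a boundary of the other. Boundaries were not more frequent there than elsewhere: chromosome 1 had 3.39 segments per 100 windows, and the 18 other autosomes had 3.19 to 6.78. With 250 kb windows 34 segments were found and with a weaker penalty 25, so the number depends on the setting.

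**Figure D3:**
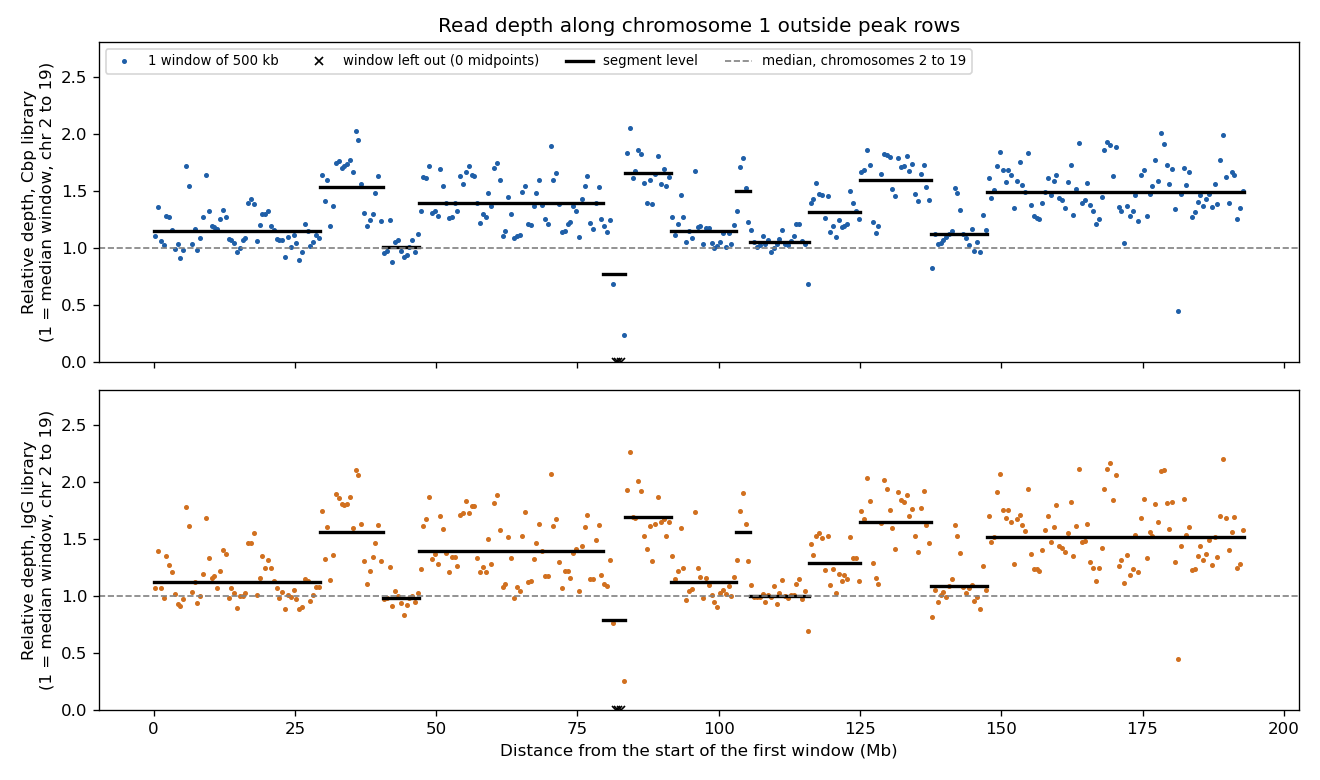
Relative depth (vertical axis) of each 500 kb window against its distance from the start of the first window in Mb (horizontal axis), for the Cbp library above and the IgG library below, with black lines at the levels of the 13 segments. The same rises and drops appear in both panels, and 3 crosses at 0 mark the windows left out.

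The steps are set on a window-to-window variation that chromosome 1 shares with the other autosomes. The SD of log2 relative depth over its windows was 0.326 in Cbp and 0.369 in IgG, against 0.290 to 0.584 and 0.331 to 0.614 on the 18 others. The median difference between neighbouring windows was 0.142 on the log2 scale, near the low end of 0.136 to 0.215 on the others. Neighbouring windows correlated with r = 0.57 on chromosome 1 and 0.36 to 0.69 on the others, given without a p since the points come from the same libraries. At a distance of 10 windows r was 0.11, against -0.125 to 0.27. By these measures the local variation of chromosome 1 lay inside the range of the other autosomes.

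The deepest windows were at 88000001 to 88500000, 193000001 to 193500000, 39500001 to 40000000, 182000001 to 182500000 and 173000001 to 173500000. The first held 3664 Cbp and 2940 IgG midpoints, a relative depth of 2.05 (1.98 to 2.12) and 2.26 (2.18 to 2.35). The window at 193000001 stood at 1.99 (1.93 to 2.06) in Cbp and 2.20 (2.12 to 2.28) in IgG. The other 3 lay between 1.90 and 2.03 in Cbp and between 2.09 and 2.16 in IgG. In all 5 the IgG value was the higher of the pair, as in 185 of the 383 windows of the chromosome. Windows picked as the deepest tend to have this order, since IgG depth was spread more widely (SD 0.331 against 0.279 for Cbp). All 5 had a midpoint in 98.0% to 99.8% of their 1 kb bins. The median over the 76 deepest windows of the chromosome was 98.6%.

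Of the 5 shallowest windows, 3 had large parts without a counted midpoint. At 87000001 to 87500000 there were 421 Cbp and 327 IgG midpoints, a relative depth of 0.235 (0.213 to 0.259) and 0.252 (0.225 to 0.281), with 25.4% of the bins covered. The window at 185000001 to 185500000 stood at 0.444 (0.414 to 0.476) and 0.447 (0.412 to 0.485) with 32.2% covered. The window at 85000001 to 85500000 stood at 0.685 and 0.758 with 57.2% covered. Higher coverage, 90.4% and 86.2%, came with depths of 0.688 and 0.826 in Cbp at 119500001 to 120000000 and 141500001 to 142000000. The median window of chromosome 1 had 96.8% of its bins covered. Of the kept windows the first of these, with 748 midpoints, and the second, with 1376, were nearest to the minimum of 250. The 3 windows left out, from 85500001 to 87000000, held 0 midpoints in both libraries. The exact interval of each reaches up to a relative depth of 0.00206 in Cbp and 0.00284 in IgG. No window of chromosome 1 lay close to the minimum on either side.

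Whether the libraries divided chromosome 1 alike was tested with the ratio of Cbp to IgG, a measure the choice of windows did not use. Summed over windows, 927941 Cbp and 678174 IgG midpoints gave a ratio of 1.006 (1.003 to 1.009) relative to chromosomes 2 to 19 (adjusted p = 0.00034 over 19 autosomes, two-sided exact binomial test). The test passed for 36.8% of the autosomes, 7 of 19, so counts of this size pass at very small differences. The ratios of the 18 others, each against the remaining ones, ran from 0.965 on chromosome 19 to 1.011 on chromosome 3, and 3 of them were above that of chromosome 1. With all deposited intervals kept, the ratio of chromosome 1 was 1.016 and those of the others ran from 0.933 to 1.021, with 1 above it. The 0.933 was that of chromosome 2, where 17.5% of Cbp and 30.9% of IgG intervals were repeats. The next lowest was 0.972, on chromosome 19. Chromosome 2 is also part of the reference for chromosome 1. In both settings the ratio of chromosome 1 lay inside the range of the other autosomes.

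Window by window, 14 of 383 (3.66%) differed between the libraries by the exact binomial test with Benjamini-Hochberg adjustment over all 5038 windows, where 2.78% of all windows did. Cbp was higher in 3 (0.783%, against 0.992% of all windows) and IgG in 11 (2.87%, against 1.79% of all windows). Without adjustment, 69 and 33 windows had a p below 0.05 in the same test. Together these were 102 of 383, and on chromosomes 2 to 19 it was 854 of 4345. By size alone, 27 windows (7.05%) had a ratio of 1.1 or more either way, against 8.89% of all windows, with Cbp higher in 22 and IgG in 5. The balance of the calls turned with the setting: with all deposited intervals kept there were 52 Cbp-higher and 15 IgG-higher windows, and with 1 Mb windows 17 and 15. The share of all windows was not counted in these 2 settings, so the counts are no result about chromosome 1. With all intervals kept, the scale also includes the repeats of chromosome 2. The Cbp-higher windows were at 103500001 to 104000000, where Cbp exceeded IgG by a factor of 1.14 (1.05 to 1.22; adjusted p = 0.0342 in the exact binomial test), at 114000001 to 114500000 and at 128500001 to 129000000, both at 1.13. Their relative depth, as a geometric mean over both libraries, was 0.960 to 1.19, and none held a peak region. Most windows of chromosome 1 at such depths held none, 73.3% at an IgG depth of 0.8 to 1 and 71.7% at 1 to 1.2. The IgG-higher windows had depths of 1.47 to 2.15. The lowest ratio lay at 173000001 to 173500000 with 3405 Cbp and 2811 IgG midpoints, 0.891 (0.847 to 0.937, adjusted p = 0.00348, exact binomial test). It was followed by the windows at 69500001 to 70000000 and 173500001 to 174000000, at 0.900 and 0.901. In 10 of these 11 windows there was at least 1 peak region, as in 88.7% of all windows of chromosome 1 with an IgG depth above 1.6. The ratio of the 383 windows ran from 0.891 to 1.14, and its SD on the log2 scale, 0.0763, was above the 0.0465 that counting alone gives. On chromosomes 2 to 19 the SD was likewise above counting, 0.0806 against 0.0547. Whichever way a window differed, the difference was small beside the range of depth.

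That excess spread of the ratio went with depth. The windows of chromosome 1 were ranked by depth into 5 equal groups, and from the shallowest to the deepest the summed ratio was 1.06 (1.05 to 1.06), 1.05 (1.04 to 1.06), 1.02 (1.01 to 1.03), 0.990 (0.984 to 0.997) and 0.957 (0.952 to 0.963). The same groups of chromosomes 2 to 19 gave 1.05, 1.04, 1.01, 0.987 and 0.959, nearly the same series. Across windows the Spearman correlation of mean depth with the ratio was -0.65 on chromosome 1 (n = 383) and -0.59 on the others (n = 4345). It is a description, since all points share 2 libraries, and mean depth and ratio are built from the same 2 counts. The fall of the ratio with depth therefore restates that IgG depth was spread more widely. Its SD over windows of chromosome 1 was 0.331 against 0.279 for Cbp.

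On a common depth scale, windows of chromosome 1 had a higher ratio than the others at mean relative depths of 0.8 and more. Below 0.8 its ratio was lower, 0.967 (0.920 to 1.02) against 1.05 (1.04 to 1.05), from 4 windows. Chromosome 1 was chosen for its depth in both libraries, so its shift along this scale restates that choice and is no separate result. Its windows at a mean relative depth of 1 to 1.2 had a ratio of 1.06 (1.05 to 1.06), while windows of chromosomes 2 to 19 at that depth had 0.994 (0.992 to 0.996). At 1.2 to 1.4 the values were 1.02 (1.02 to 1.03) and 0.969 (0.967 to 0.971), and at 1.4 to 1.6 they were 0.988 (0.980 to 0.996) and 0.951 (0.947 to 0.954). Once depth was divided by the median of each window's own chromosome, the values were 1.00 (0.995 to 1.01) and 0.994 (0.992 to 0.997) at 1 to 1.2. At 1.2 to 1.4 they were 0.974 (0.968 to 0.980) and 0.967 (0.965 to 0.969). In these groups the libraries' ratio was closer between chromosome 1 and the others on each chromosome's own scale than on the common one. The summed ratio of chromosome 1 was 1.006, and division by its own median undoes the shift that came with the choice. This closeness therefore restates the choice as well and is no separate result. Intervals still did not overlap on the own scale at 0.8 to 1, where the values were 1.04 (1.03 to 1.05) and 1.03 (1.03 to 1.03), or at 1.4 to 1.6, where they were 0.938 (0.928 to 0.949) and 0.954 (0.950 to 0.957).

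**Figure D4:**
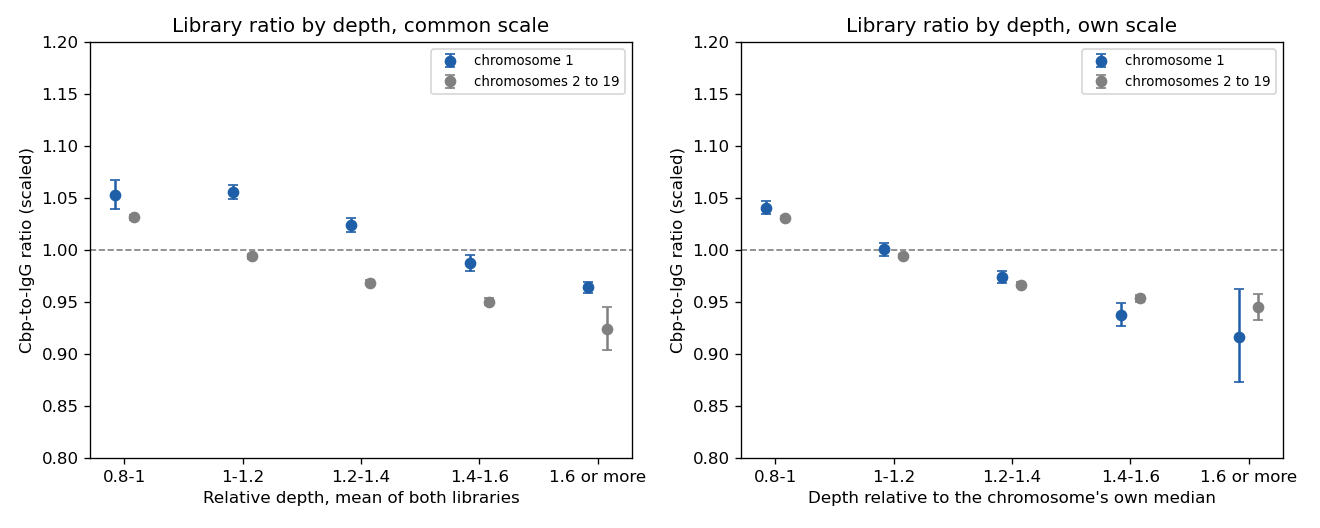
Scaled Cbp-to-IgG ratio (vertical axis) of windows grouped by relative depth (horizontal axis), on a common scale at left and relative to each chromosome's own median at right, for chromosome 1 and chromosomes 2 to 19. Bars are exact 95% counting intervals, and groups below 0.8 are not shown. At a depth of 1 to 1.2 the values are 1.06 and 0.994 at left and 1.00 and 0.994 at right. Chromosome 1 was chosen for its depth, so neither the shift at left nor the closeness at right is a separate result.

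For the density of the deposited peaks, chromosome 1 and the others were closer on the common scale at IgG depths of 0.8 and more. Below 0.8, described further down, they were not. Rows of the peak list that share sequence were merged into peak regions, and 615 regions had their centre in the 383 windows, against 2092 in the 4345 windows of chromosomes 2 to 19. No region lay in 166 windows (43.3%) of chromosome 1, against 70.2% of windows on the others. Windows were then grouped by IgG depth outside peak rows, which counts no read inside a peak row. At an IgG depth of 0.8 to 1 there were 0.578 (0.308 to 0.988) regions per Mb on chromosome 1 and 0.378 (0.330 to 0.431) on the others. At 1 to 1.2 there were 0.761 (0.530 to 1.06) and 0.867 (0.785 to 0.956). At 1.2 to 1.4 the densities were 1.60 (1.24 to 2.03) and 1.70 (1.57 to 1.83), and 46.4% of windows in both sets held none. At 1.4 to 1.6 they were 2.58 (2.00 to 3.27) and 2.97 (2.74 to 3.21), and above 1.6 they were 6.94 (6.25 to 7.69) and 6.30 (5.03 to 7.79). The intervals overlapped in all 5 of these groups, and the quotient of chromosome 1 over the others ran from 0.869 (0.665 to 1.12) to 1.53 (0.801 to 2.67). Such intervals leave room for differences of that size, and they treat regions as independent, which makes them too narrow. The highest group holds 106 windows of chromosome 1 and only 27 of the others.

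Relative to each chromosome's own median IgG depth, chromosome 1 had more regions in every group. Since chromosome 1 was chosen for its depth, its groups above 0.8 begin at a higher common depth than those of any other autosome. Density rose with common depth in both sets from 0.8 on, so the higher densities here partly restate that choice. At 1 to 1.2 of its own median chromosome 1 had 2.20 (1.77 to 2.70) regions per Mb against 0.902 (0.820 to 0.990), a quotient of 2.43 (1.92 to 3.06). At 1.2 to 1.4 the quotient was 2.39 (2.01 to 2.84) and at 0.8 to 1 it was 2.70 (1.99 to 3.63). At 1.4 to 1.6 the density on chromosome 1 was 13.7 (11.8 to 15.8) per Mb, against 2.91 (2.67 to 3.17) on the others. Without windows that hold 10 or more regions these were 7.69 (6.26 to 9.36) and 2.81 (2.57 to 3.07). The list comes from the same Cbp library, so these densities describe how listed places go with control depth and are no evidence of binding.

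**Figure D5:**
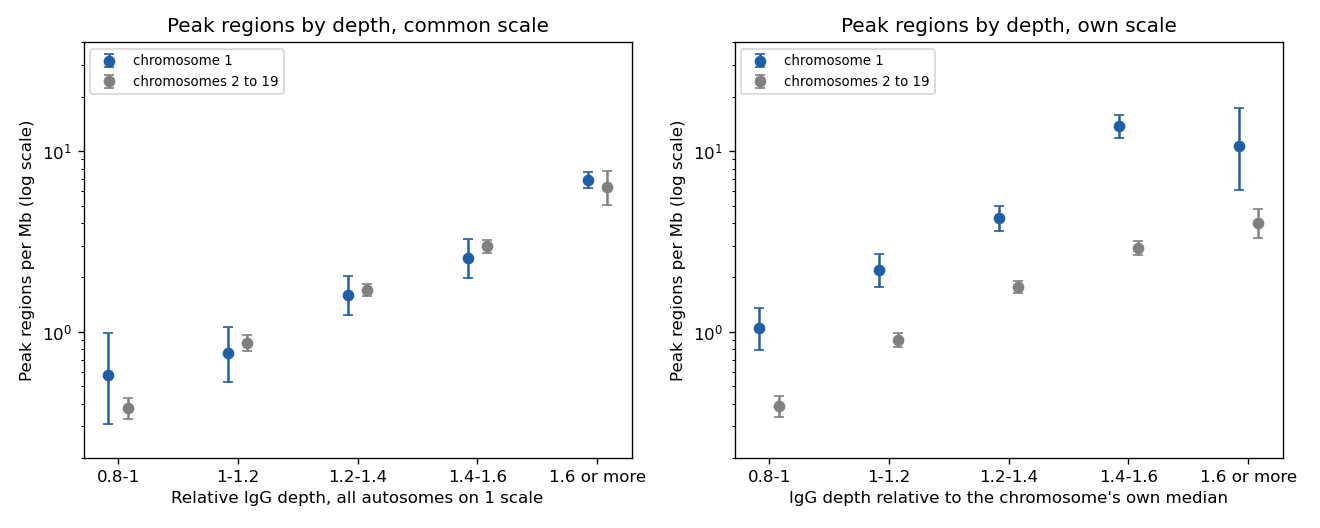
Peak regions per Mb (vertical axis, log scale) in windows grouped by IgG depth outside peak rows (horizontal axis), on a common scale at left and relative to each chromosome's own median at right. Bars are exact 95% counting intervals, and groups below 0.8 are not shown. At left the intervals of chromosome 1 and chromosomes 2 to 19 overlap in all 5 groups. At right chromosome 1, which was chosen for its depth, is higher in all 5.

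On the low side, 4 windows of chromosome 1 had an IgG depth below 0.8 and held 65 regions, 32.5 per Mb, where chromosomes 2 to 19 had 0.177 per Mb. They were the 2 windows beside the gap and those at 119500001 and 185000001. Of the regions, 49 lay in the window at 85000001 to 85500000 and 15 in the window at 87000001 to 87500000. Without windows of 10 or more regions the density there was 1.00 per Mb, from a single region. The richest window of the chromosome, with 77 regions, lay at 90000001 to 90500000. It stood at 1.83 in Cbp and 1.91 in IgG, above the median windows of its segment, 1.63 and 1.66.

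Repeated intervals were slightly more frequent on chromosome 1 in the Cbp library, but their share went with depth, for which chromosome 1 was chosen. The median window had 1.58% repeated Cbp intervals, above the medians of all 18 other autosomes, which ran from 1.42% to 1.52%. In sum the share was 1.58% (1.56 to 1.61), and 2 of the 18 others, chromosomes 2 and 17, had more. The IgG library did not show this order: the median window had 11.3% repeated intervals, and 15 of the 18 others had more. Between the shallowest and the deepest of the 5 depth groups of chromosome 1 the share differed in both libraries. It was 1.52% and 1.66% in Cbp and 10.6% and 11.9% in IgG. On chromosomes 2 to 19 the Cbp share was 1.38%, 1.46%, 1.48%, 1.55% and 7.37% from the shallowest group to the deepest. The higher Cbp share of chromosome 1 is thus no result separate from its depth.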

How the data were processed

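Each library was deposited by the authors as a list of genomic intervals on build mm9, per the submitters' processing notes, with 1 line per read and no strand or score. All but 23 Cbp and 51 IgG intervals are 200 bp long. For the aligner, filters, read extension and peak caller the sources used here give no name. The deposited peak list has rows of 400 bp. Midpoints of distinct intervals outside peak rows were counted in full 500 kb windows from 4000000 on, and windows with 250 or more were kept. Relative depth is the count over the median kept window of chromosomes 2 to 19. Cbp-to-IgG ratios were scaled by the sums over those chromosomes (1.36 Cbp per IgG midpoint) and tested by an exact conditional binomial test, two-sided, with Benjamini-Hochberg adjustment and a threshold of 0.05. Segments minimise squared error with a penalty of 3 times ln(windows) times the noise variance, and hold 5 or more windows. Ratios, counts and shares have exact 95% intervals (shares by Clopper-Pearson), which cover counting error only.

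Windows named are the 5 deepest and 5 shallowest, those nearest the minimum, the 3 most extreme ratios in each direction, all segments and the 3 largest steps. The members, lists and tests were chosen with earlier results of these data known. Depth groups and peak densities were added after window values were seen. The binomial test and the partition were tested on simulated data with counting error and independent noise only. The excess spread of the ratio and the correlation of neighbouring windows were not simulated, so error rates under them are not known. No genome or annotation of build mm9 was used, so genes, base composition and sequences are not reported. Tools were scipy 1.17.1, numpy 2.4.6, pandas 2.3.3 and matplotlib 3.10.9 under Python 3.11.15.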

Additional observations from a re-analysis of the deposited data

How the results depend on the processing

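The median relative depth of chromosome 1 (1.32 in both libraries) stayed between 1.29 and 1.34 in every setting tried. For Cbp it was 1.34 with 1 Mb and with 250 kb windows, 1.31 against the mean of chromosomes 2 to 19, 1.32 with midpoints inside peak rows kept and with a minimum of 1000 midpoints, and 1.29 without thinly covered windows, a setting added after the data were seen. For IgG it was 1.34 with 1 Mb windows, 1.32 with all intervals kept and with a minimum of 1000, 1.29 against the mean, 1.31 per covered 1 kb bin, 1.31 with the start shifted by 250 kb, and 1.29 without thinly covered windows. The 13 segments became 34 with 250 kb windows and 25 with a penalty factor of 1.5, and were 10 to 15 otherwise. The numbers of windows past the threshold were not stable. The 3 Cbp-higher windows became 17 with 1 Mb windows, 52 with all intervals kept, 22 by a ratio of 1.1 or more without a test, 0 at a threshold of 0.01 and 7 with the shifted start. The 11 IgG-higher windows became 15 with 1 Mb windows and with all intervals kept, 7 with 250 kb windows, 6 with peak midpoints kept, 5 by the ratio of 1.1 and 1 at a threshold of 0.01. By the ratio of 1.1, 27 windows of chromosome 1 (7.05%) passed, against 8.89% of all windows. In the other changed settings the share of all windows was not counted. The causes were not tested. The summed Cbp-to-IgG ratio was 1.006 to 1.016 and past the threshold in all 7 fits, and the shares of repeated intervals moved by less than their intervals. Leaving out windows with 10 or more peak regions, also added later, changed the density above an IgG depth of 1.6 from 6.94 to 5.31 per Mb (5.15 on chromosomes 2 to 19). No paired analysis was possible because there is a single library per antibody and no file for the LSK samples.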
